A study of Arabidopsis thaliana with 12 samples.

Results

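The genes described here encode 10 serine/arginine-rich (SR) splicing factors and close relatives of Arabidopsis thaliana, namely SR30, SR34, SR34a, SR34b, RS31, RS31a, RS40, RS41, SCL33 and SR45. They were chosen by gene identifier from the 32833 genes of the count table, and all 10 passed the filter on low counts. RNA was measured in 4 genotypes with 3 libraries each, 12 libraries in all. The groups were wild-type plants (WT) and the mutants se-1, cbp20 and cbp80, all in the Col-0 background and untreated. Whole seedlings were harvested at an age of 16 days after growth in constant light, and each library came from a separate pool of plants. se-1 is a hypomorphic allele of SERRATE, so these plants keep part of the function of this essential RNA processing factor. cbp20 and cbp80 carry mutations in the small and the large subunit of the nuclear cap-binding complex. In whole seedlings, less RNA per cell and fewer cells that express a gene cannot be told apart.

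SR proteins carry an RNA recognition motif and a domain rich in arginine and serine. They bind the pre-mRNA, mostly in exons, and help to bring the U1 snRNP to the donor splice site and U2AF to the acceptor site. Many plant SR genes are themselves alternatively spliced, frequently within a long intron, and isoforms with premature stop codons can be degraded by nonsense-mediated decay (NMD). SERRATE and the cap-binding complex act on pre-mRNA splicing as well as on the processing of miRNA precursors. The counts used here are sums per gene over all isoforms. They measure the level of the gene's RNA and not which isoform was made.

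The members belong to several subfamilies. SR34 (AT1G02840, plus strand, chr1:626639-629993) and its relatives SR30 (AT1G09140, minus strand, chr1:2942538-2945976), SR34a (AT3G49430, plus strand, chr3:18331509-18335154) and SR34b (AT4G02430, plus strand, chr4:1068974-1072263) are related to the human factor SRSF1. RS31 (AT3G61860, minus strand, chr3:22900050-22902395), RS31a (AT2G46610, minus strand, chr2:19136566-19138762), RS40 (AT4G25500, plus strand, chr4:13024498-13027484) and RS41 (AT5G52040, plus strand, chr5:21130320-21133709) form the RS subfamily, which is specific to plants, and RS40 and RS41 have been implicated in the processing of miRNA precursors in Arabidopsis. SCL33 (AT1G55310, plus strand, chr1:20629698-20633007) is an SC35-like factor. SR45 (AT1G16610, minus strand, chr1:5675495-5678873) has an arginine/serine-rich domain on either side of its RNA recognition motif and is often set apart from the classical SR proteins.

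The 4 RS genes shared a landmark in their pre-mRNA. In the first annotated isoform of each, the longest intron was intron 2, with 798 bases in RS31, 705 in RS31a, 782 in RS40 and 900 in RS41. The donor sites of these introns are shown because they mark the same position of the coding sequence in genes that then differed in their RNA levels. Exon bases are in capitals and intron bases in lower case, read 5′ to 3′ from the TAIR10.1 assembly of RefSeq.
RS40 donor: ATATGAAAGCTGgtgagccttttttttctt
RS41 donor: ATATGAAAGCTGgtaagtcttggttcttgt
RS31 donor: ACATGAAATCTGgtaaagtgtcttctaagt
RS31a donor: ATATGAAGTCTGgtaaaacgttttcttgca
RS40 acceptor: tttttcttttttctccagGGTTTGCTTTTG
RS41 acceptor: ttttggttctctccccagGGTTTGCTTTTG
RS31 acceptor: tgctttcttttgttgcagGATATGCTTTTG
RS31a acceptor: gtttttgttttcttgcagGTTATGCTTTTG
The RS40 windows lie on the plus strand at chr4:13025262-13025291 and chr4:13026038-13026067. Those of RS41 lie on the plus strand at chr5:21131175-21131204 and chr5:21132069-21132098. The RS31 windows are on the minus strand at chr3:22902036-22902065 and chr3:22901244-22901273, and those of RS31a on the minus strand at chr2:19138369-19138398 and chr2:19137670-19137699. Of the 24 exon bases around the junction, RS40 and RS41 shared 24, RS31 and RS31a shared 21, and each of the 4 pairs across these groups shared 20. All 4 introns began with gt and ended with ag.

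RS40 and RS41 also shared the longest run of coding bases among these pairs. Their longest identical stretch of coding sequence was 47 bases long and ran across this same junction, whose 24 exon bases are in capitals.
RS40 and RS41: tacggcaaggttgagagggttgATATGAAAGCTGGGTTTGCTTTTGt
RS31 and RS31a shared at most 18 identical coding bases in a row, and SR34 and SR34b shared 32. No stretch of 50 exon bases of any member occurred elsewhere in the genome, so fragments of such a length can be assigned to the right gene of each pair.

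Long introns and many isoforms were common to the members. Their first isoforms had a median of 8 introns, against 3 over the 27444 protein-coding genes of the annotation. The median of their longest introns was 790 bases, against 282 bases over the 21838 genes with introns, and in 8 of 10 members the longest intron exceeded 500 bases, against 19.8% of all genes with introns. At least 4 isoforms were annotated for 8 of 10 members and for 8.51% of protein-coding genes. In SR30, SR34 and SR34b the longest intron was intron 10, with 942, 818 and 387 bases. In SCL33, a factor known to act on the splicing of its own long intron, intron 3 was the longest with 765 bases.

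Depth was similar between genotypes, with 18565569 to 27068656 counted read pairs per library, and 3 counts in a library correspond to 0.111 to 0.162 CPM, the number of counts scaled to a library size of 1000000. Members had between 67 counts, for RS31a in a cbp80 library, and 3852 counts, for RS40. CBP20 RNA, the target in cbp20, was 12.4 CPM in cbp20 against 36.3 CPM in WT (log2 fold change -1.55, SE 0.09). SE RNA in se-1 (80.1 against 83.5 CPM) and CBP80 RNA in cbp80 (36.0 against 40.4 CPM) did not pass the test against WT. CBP80 RNA was lower in cbp80 than in cbp20 (log2 difference -0.39, adjusted p = 0.00641, edgeR) and was higher in se-1 than in cbp80 (0.55, adjusted p = 0.000489) and than in WT (0.39). The 4 markers of green tissue and 3 of 4 root markers were above 3 counts in every library, and markers of seed storage, flowers and pollen were near or below that floor in most libraries. The summed level of the green markers was 26810 to 28590 CPM in WT, 30150 to 30920 in cbp20, 32600 to 35440 in se-1 and 30970 to 33690 in cbp80. Of these markers, RBCS1A and RCA were called higher in se-1 (log2 fold changes 0.59 and 0.60) and in cbp80 (0.32 and 0.81). LHCB1.3 (0.06 in se-1 and -0.08 in cbp80) and CA1 (0.26 and 0.04) were not called, and no green marker was called in cbp20. The root sum was 67.3 to 74.5 CPM in WT, 83.4 to 87.8 in cbp20, 73.3 to 114 in se-1 and 83.7 to 93.4 in cbp80. Its members moved in opposite directions, since the iron transporter gene IRT1 was at 7.66 CPM in WT and 42.4, 26.8 and 25.7 CPM in se-1, cbp20 and cbp80, while the phosphate transporter gene PHT1;1 was called lower in all 3 (38.3 CPM in WT against 26.0, 29.4 and 31.9 CPM). The part of such shifts in the results below was not tested.

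RS40 was the most abundant member in WT seedlings per length of exon, and RS31a the least. CPM divided by the length of the gene's exons in kilobases (RPKM) was 57.0 ± 0.20 (SD, n = 3) for RS40, 49.2 ± 1.8 for SR34, 37.3 ± 1.2 for RS41 and 32.6 ± 0.96 for RS31. The level was 22.7 ± 1.9 RPKM for SR34a, 20.1 ± 1.2 for SR30, 18.8 ± 1.1 for SR45 and 13.02 ± 0.56 for SCL33. SR34b reached 9.12 ± 0.49 RPKM and RS31a 3.38 ± 0.14. The libraries of SR30 and SR45 overlapped in this order, whereas each of the other steps was larger than the SDs on either side. Other genes overlap 20.9% of the exon bases of RS41 and 29.1% of those of RS31a, and fragments that touch both genes were not counted. The levels of RS41 and RS31a can therefore be underestimated, and the step from SR34 to RS41 overestimated. Among the other 10 SR genes, SCL30a was at 59.3 RPKM and SCL30 at 57.2, close to RS40, and SCL28 was the lowest of all 20 at 0.97.

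**Figure D1:**
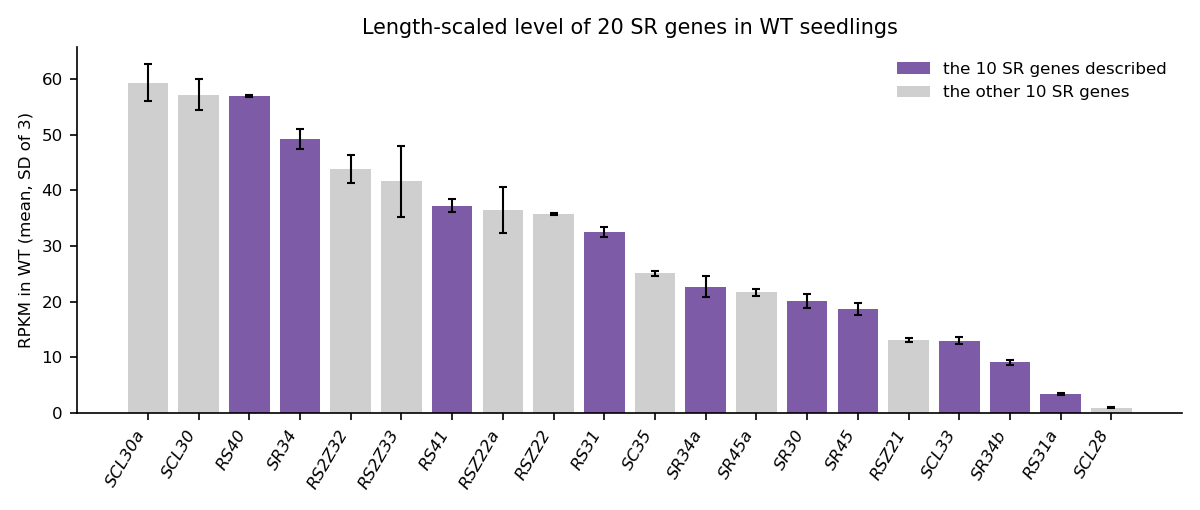
Length-scaled level (RPKM, linear axis from 0) of 20 SR genes in WT, as the mean of 3 libraries with the SD as error bar. The 10 genes described here are in purple and the other 10 SR genes in grey. RS40 (57.0) and SR34 (49.2) lead the purple bars and RS31a (3.38) is the lowest of them. The bars of RS41 and RS31a can be too low, since other genes overlap part of their exons.

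Summed over the 10 members, RNA in cbp80 lay below WT. The sum was 263 ± 5.8 RPKM in WT (SD, n = 3; range 257 to 269), 265 ± 3.1 in cbp20, 248 ± 11.3 in se-1 and 240.1 ± 4.3 in cbp80 (range 237 to 245). The ranges of cbp80 and WT did not overlap, and those of se-1 (238 to 260.0) and cbp20 (263 to 268) both overlapped WT. RS40 made up 21.7% ± 0.55 of this sum in WT, 21.6% ± 0.80 in cbp20, 18.1% ± 0.44 in se-1 and 19.6% ± 1.1 in cbp80. SR34a went from 8.63% ± 0.58 of the sum in WT to 11.3% ± 0.52 in se-1.

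To ask whether the members' RNA differed between any of the genotypes, all 12 libraries were fitted together. The test called 6 of 10 members at an adjusted p below 0.05, where 42.2% of all 20882 genes tested were called. RS40 had the smallest adjusted p of the members (edgeR quasi-likelihood test, adjusted p = 6.85e-05) and ranked 1993 among all genes tested. RS31 followed (0.00686), then SR34a (0.0141), SCL33 (0.0198), SR34 (0.0341) and RS31a (0.049), all adjusted p-values of the same test. RS41, SR30, SR34b and SR45 did not pass.

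**Figure D2:**
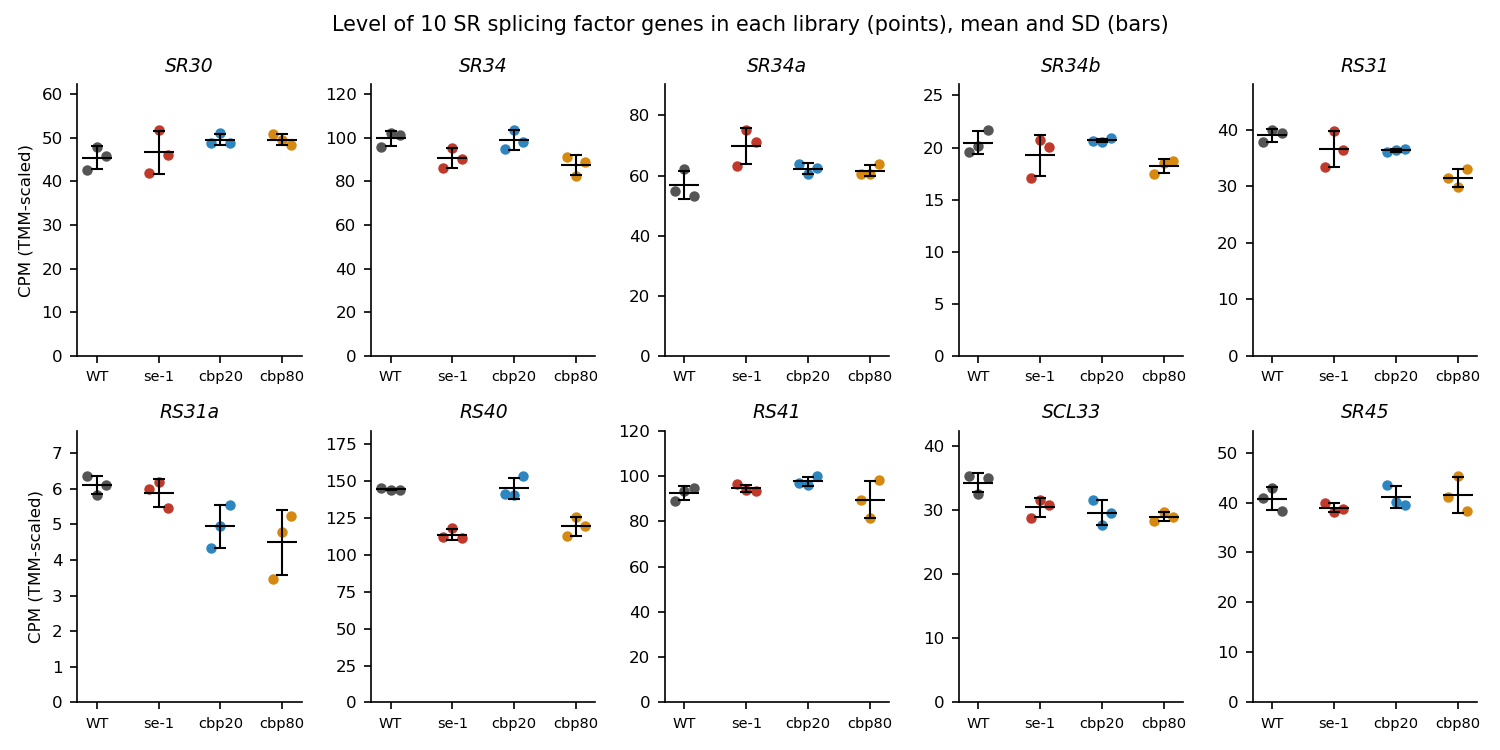
Level of each of the 10 members in the 12 libraries (CPM after TMM scaling, linear axes from 0), with 3 points per genotype and the mean and SD as black bars. RS40 sits between 144 and 145 CPM in WT and at or below 126 in every se-1 and cbp80 library, while the 3 cbp20 libraries lie between 141 and 153.

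RS40 was lower in se-1 and in cbp80 and stood at the WT level in cbp20. In WT its level was 145, 144 and 144 CPM in the 3 libraries, and in se-1 it was 112, 118 and 111 CPM. The cbp80 libraries held 113, 126 and 119.8 CPM, and the cbp20 libraries 141, 141 and 153 CPM. Every se-1 and cbp80 library was thus below every WT and cbp20 library. Against WT, RS40 fell by 0.34 on the log2 scale in se-1 (SE 0.06, adjusted p = 0.000512, edgeR), a level 21.1% lower. In cbp80 it fell by 0.27 (SE 0.06, adjusted p = 0.00166), a level 17.2% lower. In cbp20 the log2 fold change was 0.01 with a 95% interval from -0.12 to 0.13, so a change of the size measured in se-1 lay outside the interval. All 3 comparisons share the WT libraries.

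The mutants were therefore also compared directly, in the fit over 12 libraries. RS40 was lower in se-1 than in cbp20 (log2 difference -0.35, SE 0.06, adjusted p = 0.000465, edgeR), and lower in cbp80 than in cbp20 (-0.28, SE 0.06, adjusted p = 0.00347). Between se-1 and cbp80 the difference was -0.07 with a 95% interval from -0.19 to 0.05. Of the 10 members, 1 was called between se-1 and cbp20 (13.6% of all genes), 1 between cbp80 and cbp20 (10.2%) and 1 between se-1 and cbp80 (11.4%). RS40 was the member called in the first 2 of these comparisons, and RS31 in the last.

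RS41, the close relative of RS40, did not pass the test in any mutant. It stood at 89.1, 93.6 and 94.8 CPM in WT and at 96.4, 94.1 and 93.4 CPM in se-1. The cbp20 libraries held 96.9, 96.2 and 100 CPM, and the cbp80 libraries 89.3, 81.6 and 98.2 CPM. The se-1 and cbp80 values overlapped WT, and the cbp20 values lay just above it. The log2 fold changes were 0.03 in se-1 (95% interval -0.09 to 0.16), 0.08 in cbp20 (-0.04 to 0.20) and -0.04 in cbp80 (-0.19 to 0.10). An annotated gene overlaps 20.9% of the exon bases of RS41. Fragments that touch both genes were counted for neither, so its 0 counts give no measure of its RNA, and the RPKM of RS41 is divided by the full exon length all the same.

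RS31 was lowest in cbp80. Its level was 37.8, 40.1 and 39.4 CPM in WT and 31.6, 29.9 and 33.1 CPM in cbp80, and these groups did not overlap. In se-1 it was 33.5, 39.8 and 36.4 CPM, a spread that reached into WT, and in cbp20 it was 36.1, 36.4 and 36.7 CPM, just below WT. Against WT, RS31 fell by 0.31 on the log2 scale in cbp80 (SE 0.06, adjusted p = 0.00149, edgeR), a level 19.2% lower. The log2 fold changes in se-1 (-0.09, 95% interval -0.24 to 0.06) and cbp20 (-0.10, -0.23 to 0.03) did not pass. RS31 was higher in se-1 than in cbp80 by 0.21 (SE 0.07, adjusted p = 0.0432), a call that was lost when se-1 replicate 2 or 3 or cbp80 replicate 1 or 2 was left out (adjusted p up to 0.2). Against cbp20 the cbp80 level was lower by 13.3%, with an adjusted p of 0.055.

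RS31a, the relative of RS31 with little RNA, was lower in cbp80, by a margin that depended on single libraries. In WT it had 6.35, 5.84 and 6.12 CPM and in se-1 6.0, 6.20 and 5.46 CPM. The cbp20 libraries held 4.33, 4.97 and 5.53 CPM and the cbp80 libraries 3.47, 4.80 and 5.22 CPM. Every cbp20 and cbp80 library was below every WT library, and the se-1 libraries were not. RS31a fell by 0.43 on the log2 scale in cbp80 (SE 0.15, adjusted p = 0.0329, edgeR). Without WT replicate 1 or 3, or cbp80 replicate 1 or 2, the adjusted p rose to between 0.0552 and 0.128, and without cbp80 replicate 1 the log2 fold change was -0.279. In cbp20 the log2 fold change was -0.32 with an unadjusted p of 0.0281 and an adjusted p of 0.106. Neighbouring genes cover 29.1% of the exon bases of RS31a. AT2G46600, the neighbour with RNA, had log2 fold changes of -0.08, -0.27 and -0.13 in se-1, cbp20 and cbp80, of which that in cbp20 passed (adjusted p = 0.0426); its part in the RS31a counts was not tested.

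SR34 was lower in cbp80. The WT libraries held 95.6, 102 and 101 CPM and the cbp80 libraries 91.4, 82.4 and 89.0 CPM. In se-1 the level was 86.2, 95.4 and 90.3 CPM, and in cbp20 it was 94.8, 104 and 98.1 CPM. All se-1 and cbp80 values were below all WT values, the nearest by a small margin in se-1, while cbp20 overlapped WT. SR34 fell by 0.19 on the log2 scale in cbp80 (SE 0.06, adjusted p = 0.0225, edgeR), a level 12.1% lower. Without WT replicate 2 the adjusted p was 0.071 and without cbp80 replicate 2 it was 0.118. In se-1 the log2 fold change was -0.14 (SE 0.06, adjusted p = 0.108), and in cbp20 it was -0.01 (95% interval -0.14 to 0.12).

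SR34a was the member that rose in se-1. Its level was 54.9, 62.1 and 53.3 CPM in WT and 63.3, 75.3 and 71.2 CPM in se-1, and the lowest se-1 library lay just above the highest of WT. In cbp20 it was 63.9, 60.5 and 62.6 CPM, and in cbp80 60.5, 60.7 and 63.7 CPM, both within or just above the upper end of WT. SR34a rose in se-1 by 0.30 on the log2 scale (SE 0.08, adjusted p = 0.00982, edgeR), from a mean of 56.7 to 69.9 CPM. The log2 fold changes in cbp20 (0.14, 95% interval -0.01 to 0.28) and cbp80 (0.12, -0.02 to 0.26) did not pass, but without WT replicate 2 the latter was 0.189 with an adjusted p of 0.0386. The difference between se-1 and cbp20 (0.17, adjusted p = 0.129) or cbp80 (0.18, adjusted p = 0.104) did not pass either, so SR34a was not shown to differ between the mutants. Without se-1 replicate 1 these adjusted p-values were 0.0357 and 0.0287.

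SR30 and SR34b, the remaining relatives of SR34, were not called in any mutant. SR30, whose splicing responds to light and stress, had 42.6, 47.9 and 45.8 CPM in WT and 42.0, 51.9 and 46.1 CPM in se-1. In cbp20 it stood at 48.8, 51.0 and 48.8 CPM and in cbp80 at 51.0, 49.4 and 48.4 CPM, slightly above WT in every library. Its log2 fold changes were 0.04, 0.13 and 0.13 in se-1, cbp20 and cbp80, with adjusted p-values of 0.73, 0.197 and 0.12 (edgeR). SR34b, a factor linked to the splicing of the iron transporter gene IRT1, ranged from 17.04 to 21.71 CPM over the 12 libraries. Its log2 fold changes were -0.09, 0.02 and -0.16, and the last had an adjusted p of 0.0983, or 0.0211 with scaling by library size alone. IRT1 itself, counted above among the root markers, was higher in all 3 mutants, with log2 fold changes of 2.48, 1.81 and 1.75. A link between SR34b and the level of IRT1 was not tested, and counts per gene do not show how IRT1 was spliced.

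SCL33 was lower in cbp80 and lay at similar levels in the other mutants. It had 35.3, 32.6 and 34.99 CPM in WT and 28.3, 29.7 and 29.0 CPM in cbp80. The se-1 libraries held 28.8, 31.6 and 30.9 CPM and the cbp20 libraries 31.6, 27.6 and 29.7 CPM. All 9 mutant libraries were below the 3 WT libraries. SCL33 fell by 0.24 on the log2 scale in cbp80 (SE 0.06, adjusted p = 0.00742, edgeR), a level 15.3% lower. In cbp20 the log2 fold change was -0.21 (SE 0.07, adjusted p = 0.0553), and it passed without cbp20 replicate 1 (adjusted p = 0.0488), in the fit of 12 libraries (0.0264) and with scaling by library size alone (0.021). In se-1 it was -0.17 (SE 0.06, adjusted p = 0.0622), and it passed in the latter 2 settings as well (0.0452 and 0.0101). No direct difference between mutants passed, the largest being 0.07 between se-1 and cbp80 (95% interval -0.07 to 0.21).

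SR45, which binds U1-70K and U2AF35, showed no difference that passed the test. Its level was 40.9, 42.9 and 38.3 CPM in WT, and over the mutants it ranged from 38.2 to 45.3 CPM, overlapping WT in each. The log2 fold changes were -0.06 in se-1 (95% interval -0.20 to 0.07), 0.01 in cbp20 (-0.13 to 0.16) and 0.03 in cbp80 (-0.13 to 0.18).

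Counted over the list, members were called most often in cbp80. There 5 of 10 members were called and all 5 were lower, where 38.7% of the 20543 genes tested were called, 18.6% as lower and 20.1% as higher. Without cbp80 replicate 2 the count of called members was 3. For DESeq2 and for fits without a library the share of all genes called is not given. Counts from them show only how the calls depend on the processing. In se-1, 1 member was higher and 1 lower, where 33.8% of 20491 genes were called, 17.6% as higher and 16.2% as lower. In cbp20, 0 of 10 were called by edgeR and 0 by DESeq2, where 19.7% of 20475 genes were called, 10.2% as higher and 9.48% as lower. An unadjusted p below 0.05 (edgeR) was reached by 2 of 10 members and by 6511 of the 20475 genes. Without cbp20 replicate 1 the count of called members was 1, for SCL33. With scaling by library size alone 4 members were called in se-1, SR34 and SCL33 being added as lower, and 1 in cbp20. Over all genes tested, that scaling called 2649 higher and 5074 lower in se-1, and 1676 higher and 2608 lower in cbp20. The median log2 fold change of the members was -0.07 in se-1 and 0.01 in cbp20, and it was -0.17 in cbp80, beside -0.00, -0.00 and -0.01 over all genes tested. The groups did not overlap for 4 members in se-1 and 5 in cbp20, and for 7 in cbp80, where this held for 46.3%, 35.7% and 49.5% of all genes.

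**Figure D3:**
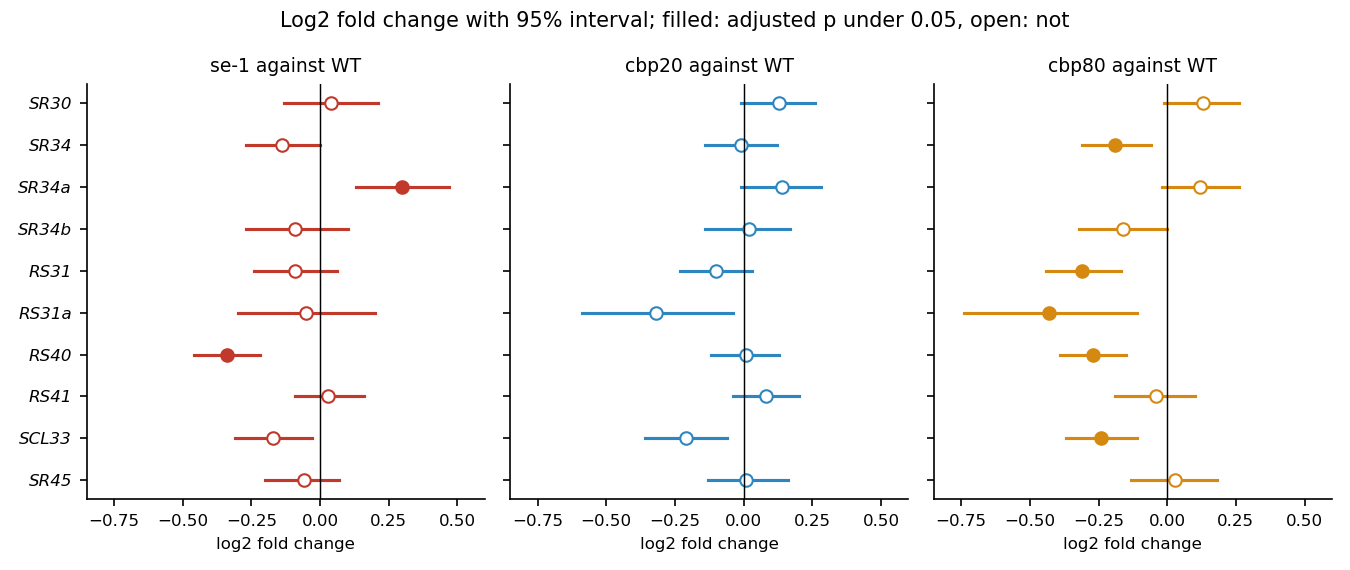
Log2 fold change of the 10 members against WT in se-1, cbp20 and cbp80 (points, linear axis) with 95% intervals as lines. Filled points passed the test at an adjusted p below 0.05; 5 points in cbp80, from -0.19 to -0.43, and RS40 (-0.34) and SR34a (0.30) in se-1 are filled, and none in cbp20.

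Because related genes differed in their changes, their ratio was taken within each library, which does not depend on how libraries are scaled to each other. The log2 ratio of RS40 to RS41 was 0.67, 0.59 and 0.57 in WT and 0.19, 0.30 and 0.22 in se-1, a mean of 0.61 ± 0.05 (SD, n = 3) against 0.24 ± 0.06 with no overlap. It was 0.54 ± 0.04 in cbp20 and 0.39 ± 0.18 in cbp80, and in both the highest library, at 0.59, overlapped WT. The level of RS41 can be underestimated because a gene overlaps its exons, so this ratio can be too high. The log2 ratio of SR34 to SR34a was 1.12 ± 0.11 in WT, 0.97 ± 0.11 in cbp20, 0.68 ± 0.06 in se-1 and 0.81 ± 0.08 in cbp80, and se-1 and cbp80 did not overlap WT.

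The ratio of SR34 to SR30 was below WT in every mutant library. Its log2 value was 1.29 ± 0.04 in WT (SD, n = 3), 1.15 ± 0.04 in cbp20, 1.12 ± 0.08 in se-1 and 0.97 ± 0.07 in cbp80. The ratios of SR34 to SR34b (from 2.39 to 2.43 on average) and of RS31 to RS31a (from 3.22 to 3.48) overlapped WT in all 3 mutants. The ratio of RS31 to RS31a can be too high, since the level of RS31a can be underestimated. All pairs were formed with the levels known. As 3 libraries against 3 cannot give an exact permutation p below 0.1, the ratios are given as values with no test.

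**Figure D4:**
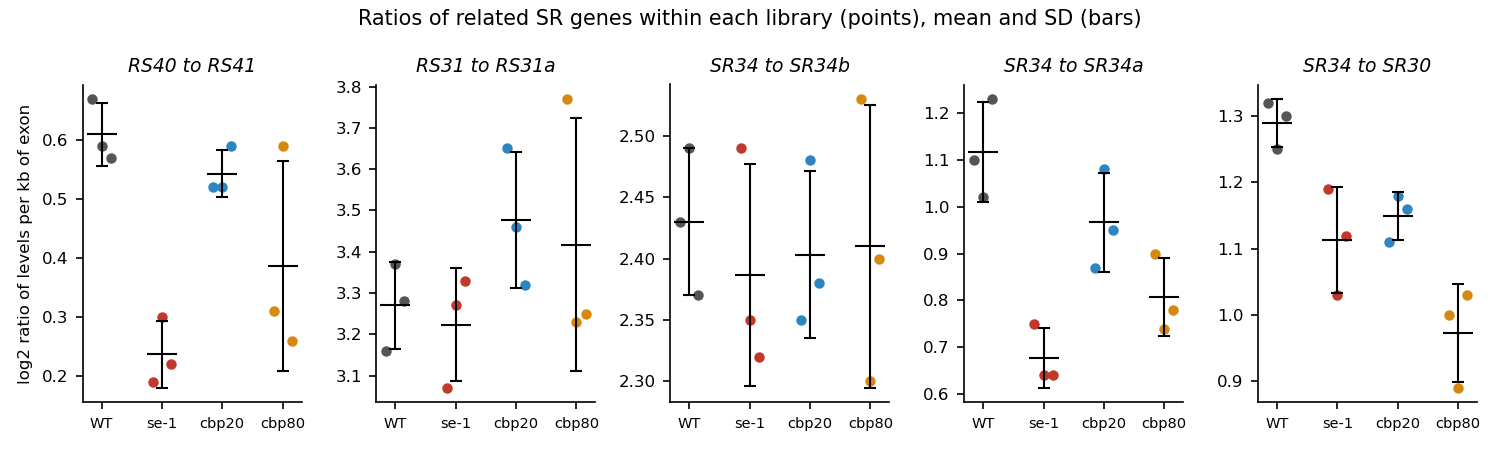
Log2 ratio of the length-scaled levels of 5 pairs of related SR genes in each of the 12 libraries (points), with the mean and SD of 3 libraries as black bars; each panel has its own axis, which does not start at 0. The RS40 to RS41 ratio is between 0.19 and 0.30 in se-1 and between 0.57 and 0.67 in WT, and the SR34 to SR30 ratio is below WT in all 9 mutant libraries. The RS40 to RS41 and RS31 to RS31a ratios can be too high, since other genes overlap part of the exons of RS41 and RS31a.

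The other 10 SR genes moved in both directions. In cbp80, 3 rose and 2 fell, in se-1 2 rose and 1 fell, and in cbp20 2 rose. For these genes and the lists that follow, the share of all genes called was 33.8% in se-1, 38.7% in cbp80 and 19.7% in cbp20. The other SR genes, at 3 of 10 in se-1, 5 in cbp80 and 2 in cbp20, lay near it. SCL28, the SR gene with the least RNA (1.19 CPM in WT), rose in all 3 mutants by 0.73, 1.06 and 1.45 on the log2 scale in se-1, cbp20 and cbp80. RSZ21, a zinc-knuckle SR factor, rose by 0.25, 0.21 and 0.23. SR45a, a stress-responsive relative of SR45, had log2 fold changes of -0.33 in se-1 and -0.31 in cbp80, both called, and of -0.16 in cbp20, which was not. In cbp80 RSZ22 rose by 0.19 and SCL30, a relative of SCL33, fell by 0.21.

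SR proteins are phosphorylated by kinases, which changes their activity and place in the nucleus. Of 8 genes listed as SR protein kinases, 2 were called in se-1 and in cbp80 and 1 in cbp20. These are 25%, 25% and 12.5% of the list, against 33.8%, 38.7% and 19.7% of all genes. In a list of 8 genes a single call makes up 12.5%. AFC2, a LAMMER-type kinase that phosphorylates SR proteins, had log2 fold changes of -0.31, -0.26 and -0.29 in se-1, cbp20 and cbp80, all called as lower. AT4G35500, annotated as a protein kinase, rose by 0.24 in se-1 and by 0.29 in cbp80.

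A list of 12 genes covered the U1 snRNP and U2AF, which SR proteins help to bring to splice sites, and factors that work with them. Of these genes, 3 were lower in se-1, 1 was lower in cbp20, and 4 were lower and 1 higher in cbp80. These are 25%, 8.33% and 41.7% of the list, against 33.8%, 19.7% and 38.7% of all genes. AT5G51410, annotated with a LUC7 domain, was lower in all mutants, with log2 fold changes of -0.28, -0.55 and -0.17. AT1G60900, a large subunit of U2AF, changed by -0.26 in se-1 and -0.28 in cbp80, and AT5G17440, a LUC7-related gene, by -0.21 and -0.26. In cbp80 the zinc-finger gene AT4G03120 rose by 0.32, and U1-70K, the U1 subunit that SR proteins contact, was lower as well (-0.20).

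Among 10 genes of hnRNP-like splicing regulators, which often oppose SR proteins, 2 were lower in se-1, 0 were called in cbp20, and 3 were higher and 2 lower in cbp80. That is 20%, 0% and 50% of the list, where 33.8%, 19.7% and 38.7% of all genes were called. In cbp20, 1 gene of the list had an unadjusted p below 0.05 (edgeR) that did not hold after adjustment, where 6511 of all 20475 genes had such a p. GRP7, a glycine-rich RNA-binding protein of the circadian system that acts on its own splicing, was lower in se-1 (741 against 1117 CPM, log2 fold change -0.59) and in cbp80 (783 CPM, -0.51). Its relative GRP8 changed by -0.31 and -0.27. In cbp80 RBP45a, an RNA-binding protein, rose by 0.27.

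Of 9 genes of NMD and the exon junction complex, which clear isoforms with premature stop codons, 2 were higher and 1 lower in se-1, 2 were higher in cbp20 and 3 were higher in cbp80. The shares called, 33.3%, 22.2% and 33.3%, were close to the 33.8%, 19.7% and 38.7% of all genes. PYM, which takes exon junction complexes off the mRNA, rose by 0.29, 0.24 and 0.31 in se-1, cbp20 and cbp80. AT1G80000, annotated as a CASC3/Barentsz protein, rose by 0.22 in each. UPF1, the helicase at the centre of NMD, had a log2 fold change of -0.19 in se-1, and eIF4A3, a core subunit of the exon junction complex, one of 0.19 in cbp80. Over these 5 lists together, 13 of 49 genes were called in se-1 (26.5%), 20 in cbp80 (40.8%) and 6 in cbp20 (12.2%), below the share of all genes in se-1 and cbp20 and near it in cbp80. The count in se-1 was 8 without se-1 replicate 3, and that in cbp20 was 3 without WT replicate 2 and 2 without cbp20 replicate 1. For these fits too the share of all genes called is not given.

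Finally, the genes whose level over the 12 libraries was most like that of RS40 were sought among all genes tested. The highest Pearson correlations of log2 CPM were those of AT4G26670 (0.992), CHX17 (0.953), ALDH5F1 (0.951), GRP7 (0.950) and SNRK2.2 (0.947). These values are a description over 12 libraries that fall into 4 genotypes. AT4G26670 had means of 22.3 CPM in WT, 22.6 in cbp20, 15.02 in se-1 and 16.8 in cbp80, the order seen for RS40, and it was chosen from all genes for this likeness. Among the SR genes, the correlations with RS40 ran from -0.545 for SR34a to 0.934 for SC35. SC35 had means of 41.4 CPM in WT, 41.9 in cbp20, 37.7 in se-1 and 38.2 in cbp80, and was not called in any mutant against WT.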

How the data were processed

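Poly(A) RNA was sequenced from 12 libraries. The deposited counts are whole numbers of read pairs per gene and were made by the authors with TopHat2 2.1.1 (Bowtie2 2.1.0) and featureCounts 1.5.0-p3 on TAIR10 with Ensembl Plants release 34, without options for strand, multi-mapping or overlapping genes. Genes of that annotation and of the RefSeq assembly TAIR10.1 had the same start and end in 99.95% of cases, so sequences were read from the latter. The 6 tables of the authors' own comparisons hold fold changes and p-values and were not used. Genes reaching 10 counts in 3 or more of a fit's libraries were scaled by TMM and tested with edgeR 4.0.16 (quasi-likelihood, R 4.3.3); adjusted p-values are Benjamini-Hochberg over all genes tested, below 0.05 being called. Mutants were compared with WT in fits of 6 libraries and with each other in the fit of all 12. SEs were derived from the F statistic and are approximate. Printed CPM were scaled over all 12 libraries. Replicates vary 4.59 to 10.5 times as much as counting error alone, and no pair of replicates agreed within it. The fit was also run on counts simulated from its own means and spread, with few changed genes. Such a run checks the code and cannot show how well the model holds for these data. DESeq2 1.42.0, scaling by library size, no filter, a replicate block, other sample sets, a threshold of 0.01 and leaving out each library were alternatives; the leaving-out for ratios was added after seeing the data. The members and gene lists were chosen with earlier results of these data known. Named genes were all members, other SR genes called in a mutant, up to 3 called genes per other list and mutant by size of change, the mutated genes, and the 5 genes most like the member with the smallest p over genotypes. U1-70K, IRT1, PHT1;1 and SC35 were named besides, after their values were seen. The labels number the replicates and state no pairing.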

Additional observations from a re-analysis of the deposited data

Results flagged for a closer look

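Differences between mutants that passed a direct test stood out for RS40 and RS31. RS40 differed between se-1 and cbp20 by -0.35 on the log2 scale and between cbp80 and cbp20 by -0.28, and both calls were kept in all 12 alternative settings at an adjusted p below 0.05. RS31 differed between se-1 and cbp80 by 0.21, a call kept in 5 of 12 such settings. Means of 3 libraries each lie behind these values.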

How the results depend on the processing

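The calls of RS40 and SR34a in se-1 and of RS40, RS31 and SCL33 in cbp80 were kept in all 12 alternatives at an adjusted p below 0.05. SR34 in cbp80 was kept in 10 and RS31a in cbp80 in 7, with RS31a at an adjusted p of 0.0629 in DESeq2. Scaling by library size alone moved the median of all genes by -0.085, -0.045 and -0.075 in se-1, cbp20 and cbp80, and the share of called genes that were higher from 52.0%, 51.9% and 51.9% to 34.3%, 39.1% and 36.2%. With it 4 members were called in se-1, 1 in cbp20, 0 between se-1 and cbp80 and 3 between cbp80 and cbp20. Over all genes tested, it called 2649 higher and 5074 lower in se-1, and 1676 higher and 2608 lower in cbp20. It called 1072 higher and 1333 lower in se-1 than in cbp80, and 1018 higher and 1144 lower in cbp80 than in cbp20. It also turned the sign of uncalled values near 0: SR30 (-0.043) and RS41 (-0.051) in se-1, SR45 (-0.032), SR34b (-0.030) and RS40 (-0.038) in cbp20, SR45 (-0.047) in cbp80, and RS31 (-0.028) between se-1 and cbp20. At an adjusted p below 0.01, 3 members were called in cbp80, 0 between se-1 and cbp80 and 2 over any genotype, and the other lists had 7, 2 and 11 calls in se-1, cbp20 and cbp80. For this threshold and the settings below, the share of all genes called is not given. These counts show only how the calls depend on the processing.

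Deviations of libraries with the same replicate number correlated by between -0.067 and 0.148, so the numbers were not taken as pairs; with the replicate block 1 member was called in cbp20 (SCL33, adjusted p = 0.0281) and 2 between cbp80 and cbp20, and the other counts of members stayed within 1.5 times. The fit of 12 libraries called 1 member in cbp20, again SCL33. A fit of the mutants' 6 libraries alone called 0 between se-1 and cbp80 and 2 between cbp80 and cbp20, and DESeq2 called 0 between se-1 and cbp80.

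Leaving out each library in turn gave 0 to 1 members in cbp20, 3 to 5 in cbp80, 1 to 2 between se-1 and cbp20 and 0 to 2 between se-1 and cbp80. The other lists had 8 to 12 calls in se-1, 2 to 6 in cbp20 and 15 to 17 in cbp80. The cause of these shifts was not tested. Leaving out a library also turned uncalled values near 0, whose log2 ranges were -0.041 to 0.115 for SR30 and -0.086 to 0.004 for RS31a in se-1, -0.017 to 0.059 for SR34b, -0.046 to 0.018 for SR34, -0.034 to 0.053 for SR45 and -0.031 to 0.031 for RS40 in cbp20, and -0.035 to 0.089 for SR45 and -0.112 to 0.025 for RS41 in cbp80. Between se-1 and cbp20 they were -0.057 to 0.071 for RS31 and -0.011 to 0.090 for SCL33, and between cbp80 and cbp20 -0.080 to 0.020 for SCL33, -0.042 to 0.002 for SR34a and -0.238 to 0.032 for RS31a. RS31a, with 67 to 143 counts per library, had the fewest counts of the members. Its SEs against WT, 0.12, 0.13 and 0.15 in se-1, cbp20 and cbp80, were also the largest of the members. The part of depth in this was not tested.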
